A study of Homo sapiens with 6 samples.

Results

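HOX genes encode transcription factors with a homeodomain, the DNA-binding fold written in the gene's homeobox. In human cells they lie in 4 clusters, and the 39 genes taken here are all rows of the deposited gene tables whose symbol is HOXA, HOXB, HOXC or HOXD followed by a paralog number. They are 39 of 62754 genes, with 11 in the HOXA cluster on chromosome 7, 10 in the HOXB cluster on chromosome 17, 9 in the HOXC cluster on chromosome 12 and 9 in the HOXD cluster on chromosome 2. RNA came from HUDEP-2, an immortalised line of human erythroid progenitors. Cells received a lentiviral hairpin named MEN1sh2, directed at MEN1 (n = 3), or a non-targeting hairpin named Controlsh (n = 3). The first group is called the knockdown below and the second the controls. The medium of both held stem cell factor (50 ng per ml), erythropoietin (3 units per ml), doxycycline (1 µg per ml) and dexamethasone. Both were selected with puromycin at 2 µg per ml from 24 h for 48 h, and both are labelled as 72 h after transduction. Only 1 MEN1 hairpin was used, so the loss of MEN1 and other effects of that hairpin cannot be told apart.

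HOX proteins give cells their position along the body axis in the embryo, and genes at one end of a cluster are switched on earlier and further forward than genes at the other. In blood, members of HOXA and HOXB are transcribed in stem and progenitor cells and decline as cells mature, and HOXB genes are known from erythroid progenitors and erythroid lines. Menin, the product of MEN1, holds the MLL1 methyltransferase (KMT2A) on chromatin, and HOXA genes with their partner MEIS1 are the best-known targets of that complex in leukaemia with MLL fusions.

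MEN1 fell in the labelled libraries, from 37.1 to 41.2 TPM (a transcript's share of the library's RNA, scaled for its length) in the controls to 6.29 to 6.88 TPM in the knockdown (log2 fold change -2.42, adjusted p 8.54e-06, limma on log2(TPM + 1)). Inferred depth was 18400000 to 35800000 read pairs per library. Erythroid marker genes were present in both groups, and all 12 passed the filter of 1 TPM in at least 3 libraries. Their summed level was 56660 to 62790 TPM in the controls and 98280 to 110500 TPM in the knockdown. Of the 12, 10 lay above the controls in all 3 libraries, as did 25.8% of all 14294 genes that passed the filter. The summed level of 10 stem and early progenitor markers was 528 to 550 TPM in the controls and 243 to 280 TPM in the knockdown, with MECOM, SPINK2 and PROM1 under 0.1 TPM throughout. Of these 10 markers 3 passed the filter, and they did not move as a set. In all 3 knockdown libraries 4 lay below the controls and 2 lay above. Among all genes that passed the filter these shares were 35.9% and 25.8%. MLLT3 alone had a mean of 264 TPM in the controls and 133 TPM in the knockdown. Summed levels of the other marker lists were 6.61 to 9.62 TPM in the controls and 1.74 to 2.69 in the knockdown for granulocytes and monocytes, 31.8 to 36.8 and 16.7 to 21.5 for megakaryocytes, 1.11 to 1.29 and 3.97 to 5.83 for lymphoid cells, and 235 to 250 and 125 to 145 for stromal and epithelial cells. Members of these lists that differed between the groups include EPCAM (239 TPM in the controls and 132 in the knockdown), ITGA2B (33.8 and 18.6), CD3D (0.397 and 4.40), AZU1 (2.23 and 0.109) and LYZ (1.48 and 0.198). By contrast ELANE, CSF3R, CSF1R, S100A8, PF4, PPBP, VWF, CD3E, MS4A1, IL7R and DCN were under 0.1 TPM. In RNA from bulk culture, fewer cells transcribing a gene and less of its RNA per cell cannot be told apart.

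HOX transcription in these cells was confined to HOXB among the genes that passed the filter. HOXB2, HOXB3, HOXB4 and HOXB7 passed, which is 4 of 39 HOX genes (10.3%) against 14294 of all 62754 genes (22.8%). No gene of HOXA, HOXC or HOXD passed. Of the 35 others, 16 were listed at 0 in all 6 libraries and 19 had a trace in at least 1 library, never above 0.286 TPM. HOXB2 was the most abundant member, and HOXB7 was the only member to pass the test between the groups with all 6 libraries. The homeoboxes of both are printed below to show how far these transcribed genes differ. Each is 180 bases in the last exon on the minus strand of GRCh38, read from GENCODE v29 transcripts. Capitals mark codons 48 to 53, a conserved stretch of the helix that lies in the DNA groove. Each homeobox was located by the amino acids WFQNRR that these codons encode, so their presence in both genes was fixed in advance.
HOXB2, chr17:48543533-48543712: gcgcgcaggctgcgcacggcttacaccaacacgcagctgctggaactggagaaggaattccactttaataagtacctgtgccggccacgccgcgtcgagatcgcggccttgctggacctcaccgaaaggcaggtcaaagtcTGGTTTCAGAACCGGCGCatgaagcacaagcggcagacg
HOXB7, chr17:48607908-48608087: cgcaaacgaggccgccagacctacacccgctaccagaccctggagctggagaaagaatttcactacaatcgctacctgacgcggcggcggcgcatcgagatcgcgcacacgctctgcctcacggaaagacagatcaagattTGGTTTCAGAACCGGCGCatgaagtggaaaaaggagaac
HOXB2 and HOXB7 had 66.7% of these bases in common. A homeobox was found in 39 of 39 HOX genes. By identity of these bases alone, the closest to HOXB2 among them was its paralog HOXA2 (76.7%), which was listed at 0 in every library. By the same measure the closest to HOXB7 was HOXB6 (88.9%), a gene of the same cluster, which stayed at or below 0.201 TPM.

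**Figure D1:**
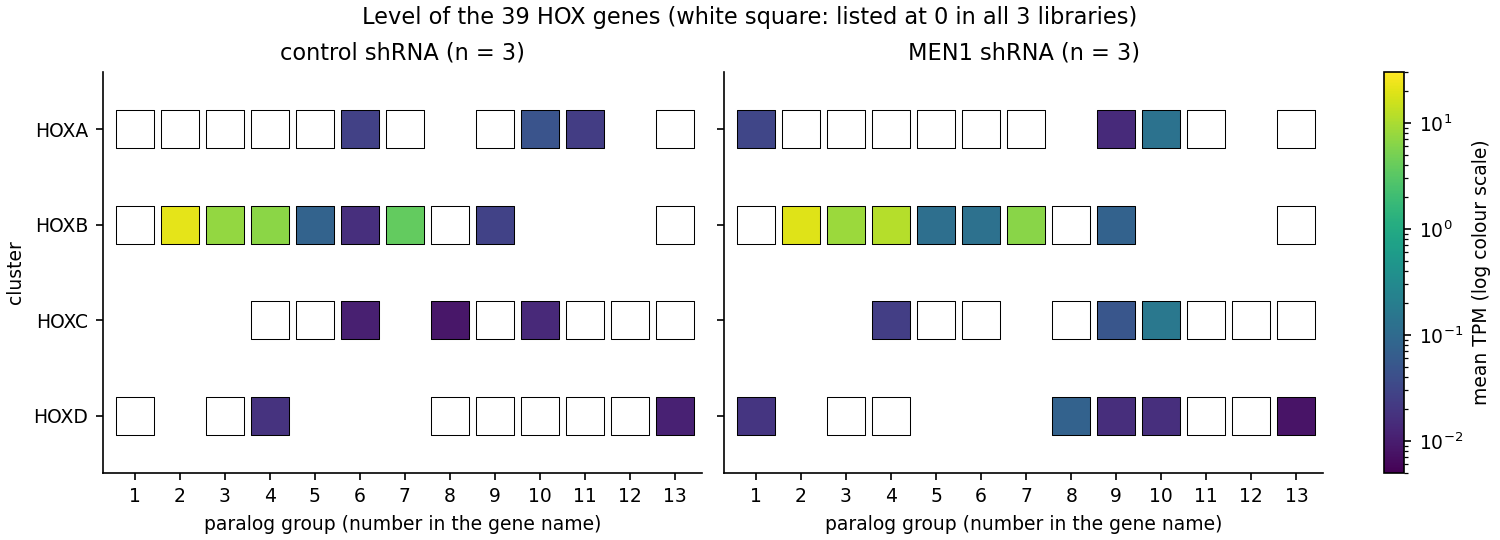
Mean TPM of the 39 HOX genes on a log colour scale, with clusters in rows and paralog numbers in columns, for control shRNA (left) and MEN1 shRNA (the knockdown, right), n = 3 libraries each; a white square is a gene listed at 0 in all 3 libraries and a gap is a paralog that does not exist. The bright squares are HOXB2, HOXB3, HOXB4 and HOXB7 in both groups, and no square outside HOXB exceeds the trace range.

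Among the 4 transcribed genes, HOXB7 rose in the knockdown, HOXB4 had a higher mean that did not pass the test, and for HOXB2 and HOXB3 the difference of the group means was within the spread of their libraries. Whether the genes' changes differ from each other was not tested. Passing the test was 1 of 4 (HOXB7), where 53.6% of all 14294 tested genes passed, 22.1% higher and 31.5% lower. The groups did not overlap for 1 of 4, against 61.8% of all tested genes. The median log2 fold change over all tested genes was -0.07.

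HOXB7 (ENSG00000260027, chr17:48607232-48633572), a paralog-group 7 factor that is often overexpressed in solid tumours, stood at 5.07, 7.56 and 6.64 TPM in knockdown replicates 1, 2 and 3 and at 4.12, 3.43 and 3.46 TPM in the controls. Every knockdown library was higher than every control, which was also so for 25.8% of all tested genes. The means were 6.42 ± 1.26 and 3.67 ± 0.388 TPM (SD, n = 3 each), a ratio of 1.75. The log2 fold change was 0.66 (SE 0.153, 95% interval 0.30 to 1.02, adjusted p 0.00829 in limma). HOXB7 passed under all 16 alternatives run, with log2 fold changes from 0.55 to 0.80. Coverage, the read depth per base deposited for each gene, was 9.85 to 14.4 in the controls and 13.7 to 23.8 in the knockdown without scaling for depth. Erythroid and progenitor markers moved between the groups as well, and their part in the rise of HOXB7 was not tested. The deposited span of HOXB7 runs over HOXB8, which was listed at 0 in all libraries, and over HOXB9, which did not exceed 0.156 TPM.

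HOXB4 (ENSG00000182742, chr17:48575507-48578350), known for expanding blood stem cells when it is overexpressed, stood at 8.82, 10.4 and 15.4 TPM in the knockdown and at 8.34, 9.70 and 2.00 TPM in the controls. The groups overlapped, because knockdown replicate 1 lay below control replicate 2. Control replicate 3 was far below every other library, with a coverage of 6.35 against 31.5 and 47.4 in the other controls. The means were 11.5 ± 3.44 and 6.68 ± 4.11 TPM, with a log2 fold change of 0.87 (SE 0.462, 95% interval -0.20 to 1.95, adjusted p 0.151 in limma). Without control replicate 3 the log2 fold change was 0.29 (adjusted p 0.313 in limma). The interval therefore holds both no change and a rise larger than that of HOXB7.

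HOXB2 (ENSG00000173917, chr17:48540894-48545109), a hindbrain patterning factor in the embryo, was the most abundant HOX transcript in 5 of 6 libraries. The exception was knockdown replicate 3, where HOXB4 was level with it (15.4 against 15.2 TPM). HOXB2 stood at 15.97, 27.1 and 15.2 TPM in the knockdown and at 21.3, 21.4 and 20.4 TPM in the controls. The controls lay close together, while knockdown replicate 2 was above them and replicates 1 and 3 below. The log2 fold change was -0.16 (SE 0.198, 95% interval -0.62 to 0.31, adjusted p 0.537 in limma). The call rests on knockdown replicate 2: without it HOXB2 was lower, with a log2 fold change of -0.41 (adjusted p 0.00866 in limma).

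HOXB3 (ENSG00000120093, chr17:48548870-48604912), which shares hindbrain and blood progenitor roles with its neighbours, stood at 10.0, 7.06 and 7.17 TPM in the knockdown and at 5.84, 9.03 and 6.98 TPM in the controls. The groups overlapped, and the highest library was knockdown replicate 1. The log2 fold change was 0.14 (SE 0.182, 95% interval -0.29 to 0.56, adjusted p 0.556 in limma). Without knockdown replicate 1 it was -0.01. In TPM HOXB3 was higher than HOXB7 in 5 of 6 libraries. The coverage of HOXB3 was 1.21 to 2.64 reads per base, below the 9.85 to 23.8 of HOXB7. Scaled for depth to TPM units, the coverage of HOXB3 was 0.379 to 0.539, far below its TPM, while that of HOXB4 equalled its TPM. The length over which coverage is averaged is not stated and differs between genes, so coverage does not rank them. Its deposited span contains HOXB4, HOXB5 and most of HOXB6.

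**Figure D2:**
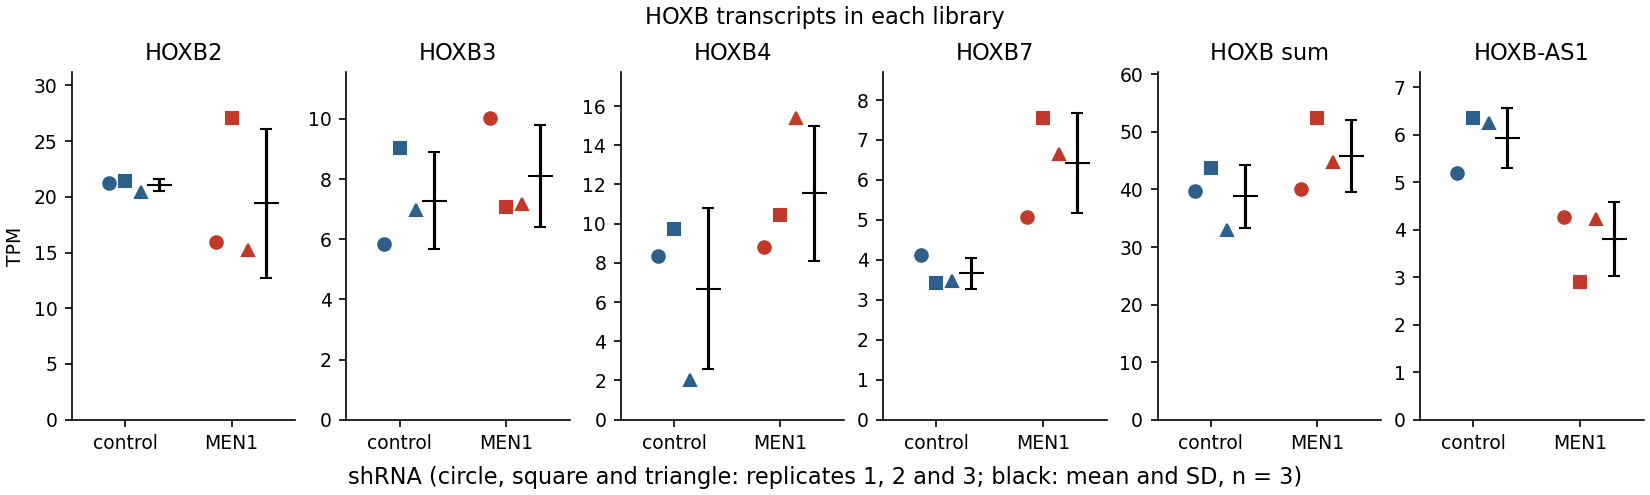
TPM of HOXB2, HOXB3, HOXB4, HOXB7, the sum of the 10 HOXB genes and HOXB-AS1 in each library (circle, square and triangle for replicates 1, 2 and 3; black line and bar for the mean and SD, n = 3; each panel has its own axis from 0). The 2 groups separate for HOXB7 and HOXB-AS1 and overlap in the other panels.

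In order of TPM in the controls, HOXB2 (21.0 ± 0.528 TPM) was above the others. HOXB3 (7.28 ± 1.62) and HOXB4 (6.68 ± 4.11) did not differ beyond their spread, nor did HOXB4 and HOXB7 (3.67 ± 0.388). Coverage was lowest for HOXB3 in every library, but it does not rank genes, for the reason given above for HOXB3. With the MEN1 shRNA the mean order was HOXB2 (19.4 ± 6.67), HOXB4 (11.5 ± 3.44), HOXB3 (8.09 ± 1.69) and HOXB7 (6.42 ± 1.26), and the libraries of each pair of neighbours in that order overlapped. The sum of all 10 HOXB genes was 40.1, 52.5 and 44.8 TPM in the knockdown and 39.7, 43.7 and 33.0 TPM in the controls. Those sums overlapped, with a log2 fold change of 0.24 (SE 0.130, 95% interval -0.07 to 0.54, adjusted p 0.166 in limma).

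The transcribed genes were not neighbours without a gap. HOXB1, at the end of the cluster active earliest in the embryo, was listed at 0 in every library, as were HOXB8 and HOXB13. HOXB5, which lies between HOXB4 and HOXB6, stood at 0.0617, 0.101 and 0.188 TPM in the knockdown and at 0.129, 0.0997 and 0 TPM in the controls, so the groups overlapped. HOXB6, known from erythroid cells, stood at 0.0888, 0.0822 and 0.201 TPM in the knockdown and at 0, 0 and 0.0480 TPM in the controls. HOXB6 was thus higher in all 3 knockdown libraries, but at a level of few read pairs, and it did not pass when every gene was fitted without the filter. The share of genes at this level whose groups do not overlap was not computed. HOXB9 stood at 0.0673, 0.156 and 0 TPM in the knockdown and at 0, 0.0478 and 0.0368 TPM in the controls, again overlapping.

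**Figure D3:**
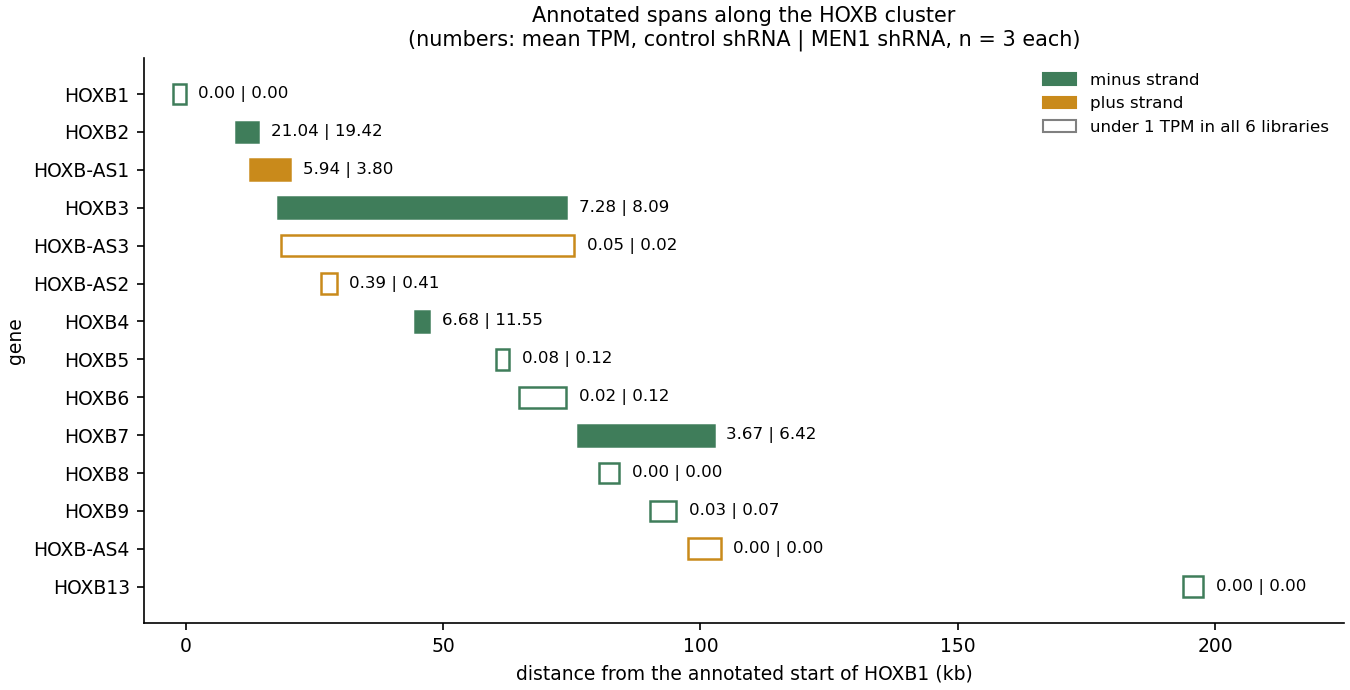
Annotated spans of the HOXB genes and their antisense genes along chromosome 17, drawn to scale as distance from the annotated start of HOXB1 in kb, with mean TPM in control and knockdown libraries beside each (n = 3 each); filled bars reached 1 TPM in a library, and colour gives the strand. The span of HOXB7 contains those of HOXB8 and HOXB9, that of HOXB3 contains those of HOXB4 and HOXB5, and HOXB-AS1 overlaps both HOXB2 and HOXB3.

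Of 61 other annotated genes inside the cluster spans, HOXB-AS1 was the 1 that passed the filter, and 48 were listed at 0 throughout. HOXB-AS1 (ENSG00000230148, chr17:48543551-48551250) is a noncoding RNA on the plus strand that overlaps HOXB2 and HOXB3. It stood at 4.27, 2.90 and 4.23 TPM in the knockdown and at 5.20, 6.37 and 6.24 TPM in the controls. All 3 knockdown libraries lay below the controls, as for 35.9% of all tested genes. The means were 3.80 ± 0.777 and 5.94 ± 0.642 TPM, and HOXB-AS1 fell by 0.54 on the log2 scale (SE 0.155, adjusted p 0.0203 in limma). With coverage scaled for depth the change was -0.27. The same 1 was added to those values before the log, which understates changes of low values. This size is therefore not comparable with that in TPM. The call was lost without knockdown replicate 2 (adjusted p 0.052), control replicate 2 (0.0669) or control replicate 3 (0.0631), and without the filter (0.0671), all in limma. The library kit marks strand, but whether the quantification used it is not stated, so reads of HOXB-AS1 and of its partners may not be fully separated. HOXB-AS2 stood at 0.346 to 0.458 TPM over the 6 libraries, HOXB-AS3 did not exceed 0.0766 TPM, and HOXB-AS4 and MIR10A were listed at 0, where MIR10A is a microRNA gene whose short product poly(A) selection does not keep.

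The RefSeq promoter window of HOXB-AS1 is printed because it places a RefSeq start of this gene inside HOXB2. It is chr17:48544101-48544400 on the plus strand (RefSeq, GRCh38.p14), within the intron of the coding HOXB2 transcript. The deposited span of HOXB-AS1 begins upstream of this window, at 48543551, within the homeobox of HOXB2 printed above. Capitals mark CG, which reads the same on both strands.
HOXB-AS1 promoter: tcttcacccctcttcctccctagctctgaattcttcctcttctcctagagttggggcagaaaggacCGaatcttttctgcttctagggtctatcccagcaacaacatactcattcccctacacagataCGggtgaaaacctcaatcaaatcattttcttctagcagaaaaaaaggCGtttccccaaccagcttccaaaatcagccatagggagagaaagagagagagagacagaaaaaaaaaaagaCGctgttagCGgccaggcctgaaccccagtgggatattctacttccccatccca
This window has 5 CG pairs and a GC content of 46.7%. Of 35116 RefSeq windows of the same length, 96.0% hold at least 1 CG and 70.4% hold as many or more.

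HOXA was at trace level or at 0. HOXA9, the member best known from leukaemia, did not exceed 0.0419 TPM, and HOXA2, HOXA3, HOXA4, HOXA5, HOXA7 and HOXA13 were listed at 0 in every library. HOXA10, a partner of HOXA9 in blood progenitors, stood at 0.0794, 0.0953 and 0.222 TPM in the knockdown and at 0.0313, 0 and 0.112 TPM in the controls. Its groups overlapped. HOXA6 (0.0808 TPM) and HOXA11 (0.0712 TPM) had a trace in 1 control library each and in no knockdown library. The 11 HOXA genes summed to 0.121, 0.0953 and 0.314 TPM in the knockdown and to 0.112, 0 and 0.183 TPM in the controls, also overlapping.

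HOXC and HOXD, whose genes pattern the trunk, limbs and genital tract, were at trace level too. HOXC10 stood at 0.109, 0.286 and 0.0971 TPM in the knockdown and at 0.0404, 0 and 0 TPM in the controls, so the groups did not overlap. These values correspond to about 2.43, 6.86 and 1.61 read pairs in the knockdown and to 0.98, 0 and 0 in the controls. How often other genes at trace level do not overlap between the groups was not computed. HOXC9 was listed above 0 in knockdown replicates 1 and 2 (0.0475 and 0.107 TPM) and in no control. HOXD8 was listed above 0 in knockdown replicates 2 and 3 (0.0924 and 0.134 TPM) and in no control. Traces in 1 control library and no knockdown library were found for HOXC6 (0.0323 TPM), HOXC8 (0.0255 TPM) and HOXD4 (0.0544 TPM). Over all clusters, 8 genes had a trace only in the knockdown and 5 only in the controls. HOXC5, HOXC11, HOXC12, HOXC13, HOXD3, HOXD11 and HOXD12 were listed at 0 in every library. The 9 HOXC genes summed to 0.157, 0.440 and 0.123 TPM in the knockdown and to 0.0404, 0.0255 and 0.0323 TPM in the controls. The 9 HOXD genes summed to 0.119, 0.149 and 0.134 TPM against 0.0331, 0.0544 and 0 TPM. Both sums lay higher in all 3 knockdown libraries, but neither passed the filter. As for HOXC10, the share of comparable sums that separate was not computed. When every gene was fitted without the filter, the adjusted p in limma was 0.0287 for the HOXD sum, 0.153 for the HOXC sum and 0.554 for the HOXA sum. In that same fit none of the 19 single genes with a trace passed.

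The traces rest on few molecules. Over the 35 genes below the filter, the values correspond to about 14.7, 26 and 17.7 read pairs in the 3 knockdown libraries and to 7.19, 7.36 and 7.71 in the controls. Of 105 values per group, 26 were above 0 in the knockdown and 14 in the controls, which over the 19 genes with a trace alone is 45.6% and 24.6% of 57 values per group. Of these 19 genes 13 had the higher mean in the knockdown and 6 the lower. Depth was 18400000 to 26400000 read pairs in the knockdown and 23200000 to 35800000 in the controls, and its part in the traces was not tested. Among 11872 other genes with a trace that never exceeded the same level, 43.73% of values were above 0 in the knockdown and 43.04% in the controls, and 53.2% of these genes had the higher mean in the knockdown. A value of 0 allows up to 3 read pairs, which over the 170 values at 0 is 0.0368 to 0.354 TPM with a median of 0.122, for counting error only and by the longest annotated transcript. Some traces lie below that level, so a 0 bounds a gene's level and does not show its absence.

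**Figure D4:**
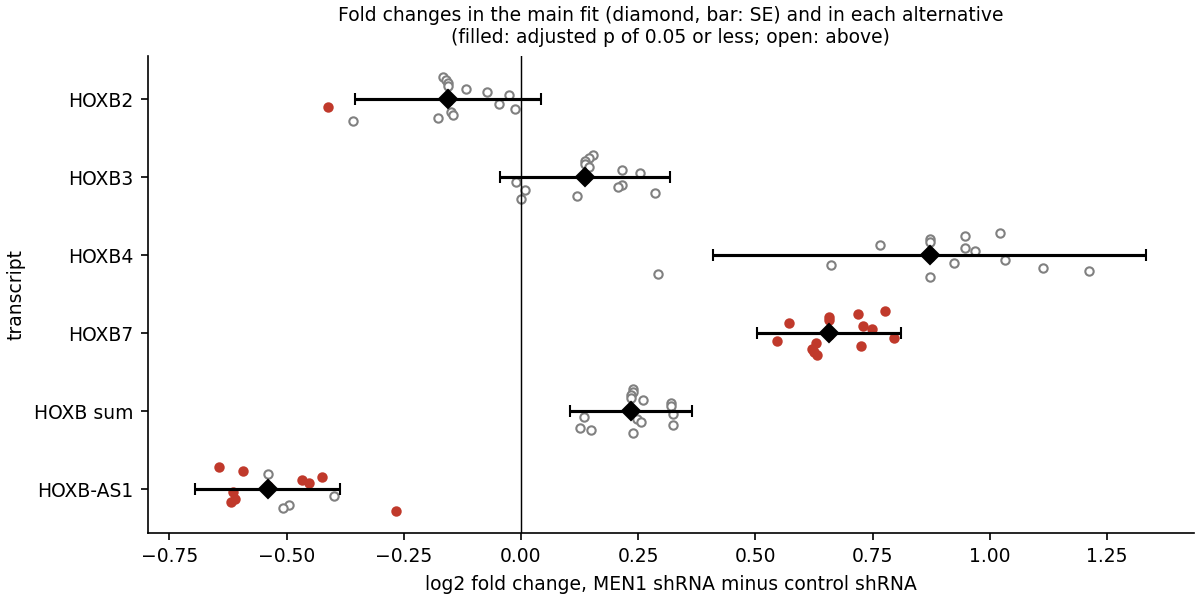
Log2 fold change (MEN1 shRNA minus control shRNA) of the 4 transcribed HOXB genes, the HOXB sum and HOXB-AS1, as reported (diamond, bar for the SE) and under each alternative (circles, filled where the adjusted p was 0.05 or less). All circles of HOXB7 are filled and lie to the right of 0, HOXB4 spreads from 0.29 to 1.21, and HOXB2 has 1 filled circle, at -0.41.

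HOX proteins bind DNA with TALE homeodomain partners of the PBX, MEIS and PKNOX families. Of 8 such genes 4 were tested, 1 rose and 1 fell (50% called, against 53.6% of all genes), and the median log2 fold change was 0.05. PBX2 rose, from 105, 109 and 103 TPM in the controls to 134, 150 and 163 TPM in the knockdown (log2 fold change 0.49, SE 0.0785, adjusted p 0.00138 in limma). MEIS2 fell, from 8.12, 9.70 and 10.7 TPM to 4.22, 3.31 and 3.25 TPM (log2 fold change -1.19, SE 0.140, adjusted p 0.000312 in limma). With coverage scaled for depth in place of TPM the change of MEIS2 was -0.22 (adjusted p 0.00129 in limma). The same 1 was added to those values before the log, so this size is not comparable with that in TPM. In TPM neither gene overlapped between the groups. PBX3 stood at 14.3 to 14.9 TPM in the knockdown and 12.1 to 13.4 TPM in the controls (log2 fold change 0.19, adjusted p 0.0778 in limma), and passed when values were scaled by the median of ratios (0.0257) or by quantiles (0.0147). PKNOX1 did not pass (log2 fold change -0.10, adjusted p 0.423 in limma). MEIS1, the usual partner of HOXA9 in leukaemia, did not exceed 0.252 TPM. PBX4, MEIS3 and PKNOX2 were below the filter as well, and MEIS3 was listed at 0.135 to 0.209 TPM in the knockdown and at 0 to 0.0514 TPM in the controls.

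**Figure D5:**
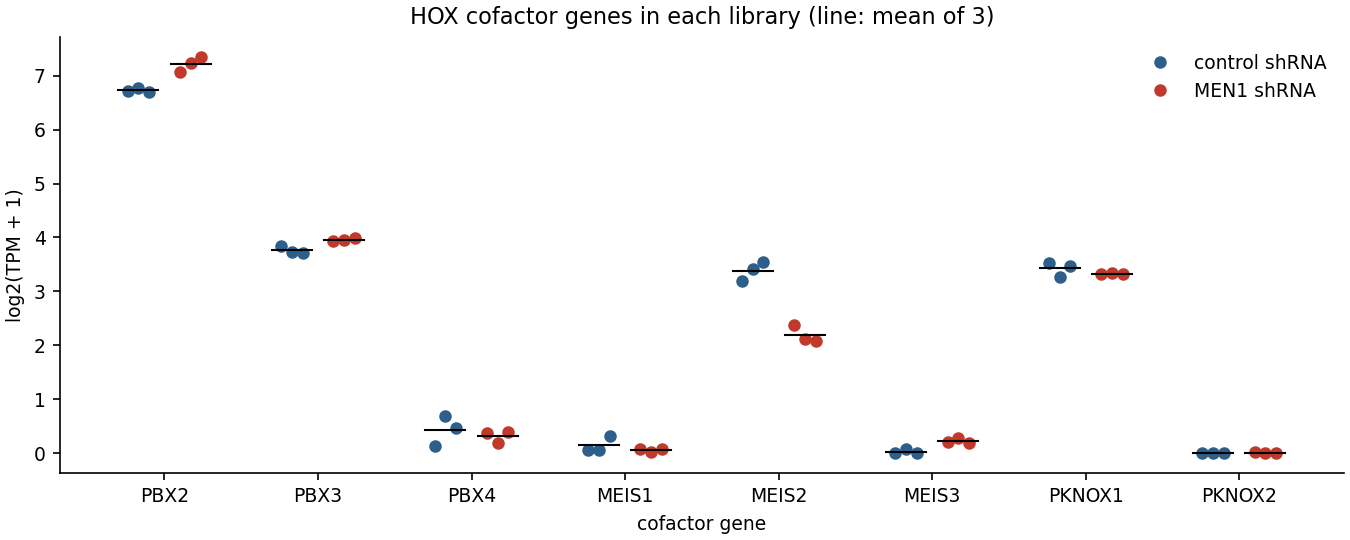
Level of the 8 HOX cofactor genes as log2(TPM + 1) in each library (points) with the mean of 3 (line), control shRNA in blue and MEN1 shRNA in red. PBX2 lies higher and MEIS2 lower in all 3 knockdown libraries, while MEIS1 and PKNOX2 stay near 0 in both groups.

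Genes that act on HOX chromatin changed about as often as all tested genes did (53.6% called). Of 19 genes for menin, MLL proteins and H3K4 methylation, all tested, 5 rose and 6 fell (57.9% called, median 0.12), and 1 of those that fell is MEN1 itself, the target of the hairpin. KMT2A rose (log2 fold change 0.44, adjusted p 0.00376), as did the core subunit ASH2L (0.70, adjusted p 0.000125), while the core subunit WDR5 fell (-0.51, adjusted p 0.000994), all in limma. Of 21 tested genes for DOT1L and the elongation partners of MLL, 2 rose and 8 fell (47.6%, median -0.03), with ELL (-0.90), MLLT1 (-1.05) and AFF1 (-0.71) at the lowest adjusted p. Of 34 tested Polycomb genes, whose proteins keep silent HOX clusters repressed, 11 rose and 7 fell (52.9%, median -0.08). PHF1 (1.09) and EZH1 (0.68) rose and EPOP (-0.86) fell, and the methyltransferase EZH2 stood at -0.06 (adjusted p 0.516 in limma).

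Of 12 tested upstream regulators of HOX genes, 4 rose and 6 fell (83.3% called, against 53.6% of all tested genes, median -0.03). NPM1, a nucleolar protein whose leukaemia mutants sustain HOX transcription, fell from 3176 to 667 TPM (log2 fold change -2.26), and the retinoic acid receptor RARG (-1.43) and the HOX-binding protein GMNN (-0.57) fell as well. CDX2, a homeobox activator of HOX clusters, did not exceed 0.0232 TPM. Of 15 tested genes of the menin-MLL leukaemia programme outside HOX, 2 rose and 11 fell (86.7% called, median -0.54). Among all tested genes 53.6% were called, 22.1% higher and 31.5% lower. IGF2BP2 (-2.25), MYB (-1.23) and MYC (-1.65) had the lowest adjusted p of this list.

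Genes flanking the clusters moved in both directions. Of 17 tested flanking genes, 5 rose and 6 fell (64.7% called, against 53.6% of all tested genes, median 0.07). Those with the lowest adjusted p were ATP5MC1 (-1.31) beyond HOXB, JAZF1 (0.94) beyond HOXA and ATP5MC3 (-0.60) beyond HOXD. For JAZF1 the change was 0.42 with coverage scaled for depth, where the 1 added before the log weighs differently. On the HOXB side, the heterochromatin protein gene CBX1 rose (0.79, adjusted p 0.000926 in limma) and CALCOCO2 rose (0.37, adjusted p 0.0206 in limma), while SNX11, nearer to the cluster than CBX1, did not pass (0.16, adjusted p 0.232 in limma). CBX1, CALCOCO2 and SNX11 were singled out for their place beside HOXB after their values were seen. Among the genes between HOXB9 and HOXB13 and beyond, PRAC1, PRAC2 and TTLL6 were listed at 0.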

How the data were processed

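Poly(A) RNA of 6 libraries, which the labels call biological replicates, was read from gene tables of 62754 genes. Per the submitters' processing notes, FastQC, Trimmomatic, STAR 2.7.1a, Picard 2.20.4, StringTie 2.0.4 and the hg38 build were used, without roles. The annotation and strand setting are not stated in the labels or headers. Per the file headers the authors deposited coverage, FPKM and TPM. Since TPM values sum to a fixed total, abundant transcripts lower all others, and TPM depends on how reads were divided among isoforms and overlapping genes. Residues below 0 in control replicate 2 were set to 0. Depth was inferred from the deposited coverage and FPKM of single-transcript genes (151-base reads).

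Genes at 1 TPM or more in at least 3 libraries were fitted as log2(TPM + 1), which understates fold changes of low genes, with limma 3.58.1 in R 4.3.3 (eBayes with trend, 2-sided, Benjamini-Hochberg over 14294 genes, threshold 0.05). The step was tested on simulated data. Cluster sums that passed the filter were fitted as added features. Shares were compared with exact permutation tests, whose smallest p is 0.1. Homeoboxes were located by a script in GENCODE v29 transcripts, where 39 of 39 HOX genes matched by identifier. All 39 overlapped their v29 position, but only 12 had the deposited span. Read-pair estimates of the traces use v29 lengths and are approximate.

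All HOX genes were named, those that passed the filter or reached 0.1 TPM with every library, besides MEN1, KMT2A, MEIS1, PBX genes and up to 3 genes per list with the lowest adjusted p. Members and lists were chosen with earlier results of these data known. Some items are not reported here. Alternatives were other pseudocounts, filters, scalings, FPKM, eBayes without trend, a replicate block, each library left out, overlapping genes in the sums and, chosen after seeing the data, coverage scaled for depth.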

Additional observations from a re-analysis of the deposited data

How the results depend on the processing

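Depth limits the 35 HOX genes below the filter to a description, and 3 libraries per group limit the 4 others. Of 116 comparisons of the counts, MEN1 and the cluster sums with their alternatives, 107 kept direction and side of the threshold (counts within 1.5 times, untested sums within 1 SD), and 420 of 430 comparisons of named genes kept direction and side, though not always size. With coverage scaled for depth MEIS2 was at -0.22, JAZF1 at 0.42 and HOXB-AS1 at -0.27. The pseudocount of 1 was added to these values too, so their sizes are not comparable with those in TPM. Calls toward higher were 41.2% of all calls, and 49.5% with median-of-ratios and 49.1% with quantile scaling. The sums of silent clusters moved with the pseudocount: at 0.1 the log2 fold changes were 0.524 (HOXA), 1.244 (HOXC) and 0.879 (HOXD), and at 0.5 that of HOXD was 0.262. With overlapping genes added to the sums they were 0.544 (HOXA) and 0.497 (HOXC), and for HOXD FPKM gave 0.069 and quantile normalization 0.065. Without overlapping genes these sums reached at most 0.440 TPM, under the pseudocount of 1, which understates changes of low values. Other causes were not tested. Direction reversed for PKNOX1 with quantile normalization (0.029) and for HOXB3 without knockdown replicate 1 (-0.011) and with coverage scaled for depth (-0.00033).

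With 1 library left out, the HOX genes past the threshold numbered 1 to 2, the second being HOXB2 without knockdown replicate 2. HOXB3 ranged from -0.011 to 0.285. All genes past it numbered 6377 to 7317, and MEN1 ranged from -2.46 to -2.38, the HOXB sum from 0.125 to 0.324, HOXA from 0.016 to 0.153, HOXC from 0.142 to 0.322 and HOXD from 0.12 to 0.158.

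Libraries with the same replicate number did not deviate together (correlations 0.017, -0.027 and -0.012). The labels do not state whether the numbers pair libraries, and with 3 libraries per group these correlations cannot decide it. With the replicate block HOXB7 had a log2 fold change of 0.66 (adjusted p 0.0257 in limma), and the call of no HOXB gene changed. Only replicate 1 correlated best with its own number.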

Other observations

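Shares within the HOXB cluster were computed after the values had been seen. HOXB7 made up 12.6%, 14.4% and 14.8% of HOXB TPM in knockdown replicates 1, 2 and 3 and 10.4%, 7.85% and 10.5% in the controls. The groups did not overlap (2-sided exact permutation p 0.1, the smallest that 3 against 3 libraries allow). HOXB2 made up 39.8%, 51.7% and 33.9% in the knockdown and 53.6%, 49.0% and 62.0% in the controls, and these overlapped (exact permutation p 0.2). HOXB7 stood at 0.317, 0.279 and 0.437 of the TPM of HOXB2 in the knockdown and at 0.194, 0.160 and 0.169 in the controls (exact permutation p 0.1). The ratio of HOXB-AS1 to HOXB3 was 0.425, 0.411 and 0.590 in the knockdown and 0.891, 0.705 and 0.895 in the controls (exact permutation p 0.1), while its ratio to HOXB2 overlapped between the groups (exact permutation p 0.4). In all, 8 shares and ratios were compared, they share members, and none can pass 0.05 with 3 libraries per group.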
